A study of Rattus norvegicus with 12 samples.

Results

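A sensory-organ miRNA cluster, made of miR-183 with its neighbours miR-96 and miR-182, was followed in 12 small RNA libraries of cultured rat cortical neurons. Its members were every miRNA name in the tables that reads miR-183, miR-96 or miR-182 with or without an arm suffix, which gave 4 of 685 miRNA names: rno-miR-183-5p, rno-miR-183-3p, rno-miR-96-5p and rno-miR-182. The neurons came from embryonic day 17 cortices of Sprague Dawley rats, were plated at 100000 cells per square centimetre, and all received a lentivirus with a short hairpin RNA (shRNA) at 10 days in vitro before lysis at 14 days in vitro. The shRNA was a non-targeting control (shNTC), was directed against Stau2 (shStau2), which encodes the double-stranded RNA-binding protein Staufen2, or was directed against Pum2 (shPum2), which encodes the RNA-binding protein Pumilio 2. Each group had 4 libraries, numbered 1 to 4 as biological replicates. No group was left without virus, so every comparison is between cultures that carried an shRNA, and the shPum2 group was meant as a second control for what an active shRNA brings. The depletion of Stau2 or Pum2 itself was not analysed here, since only small RNAs were counted.

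The cluster is transcribed as a single primary transcript, from which Drosha and Dicer cut the hairpins into mature strands of about the same length. It is best known from sense organs, where photoreceptors, inner-ear hair cells, olfactory neurons and sensory ganglia make it in large amounts, and base changes in the seed of miR-96 cause progressive hearing loss in mouse and human. In mouse retina its strands rise with light and turn over fast, and in mouse hippocampus the cluster has been tied to memory formation.

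The sequences show how closely the members are related and how the locus is laid out. In the RefSeq annotation of assembly GRCr8, all 3 hairpins lie on the minus strand of chromosome 4, Mir183 at chr4:59756044-59756153, Mir96 at chr4:59755841-59755946 and Mir182 at chr4:59752246-59752307, between the protein-coding genes Nrf1 and Ube2h. Mir183 and Mir96 are separated by 97 bases, and Mir182 follows 3533 bases further on. The mature strands are given 5′ to 3′ with the seed, bases 2 to 8, in capitals:
miR-183-5p: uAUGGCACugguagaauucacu
miR-96-5p: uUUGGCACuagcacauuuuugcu
miR-182: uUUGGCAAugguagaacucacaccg
miR-183-3p: uGAAUUACcgaagggccauaa
Counted from base 1 at the 5′ end, the seed of miR-96-5p differs from that of miR-182 by the substitution C8A, and the seed of miR-183-5p differs from that of miR-96-5p by A2U. Compared without gaps from base 1, miR-183-5p and miR-182 share 18 of 22 bases, whereas miR-96-5p shares 13 of 22 with miR-183-5p and 12 of 23 with miR-182. The passenger strand miR-183-3p shares 6 of 21 bases with miR-183-5p. A mature RefSeq sequence was found for 613 of the 685 miRNA names, and among these no other name shares bases 2 to 7 with any of the 4 members.

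The hairpins show where the counted strands sit, with those strands in capitals. Mir183 gives a strand from each arm, while only a strand of the 5′ arm is counted for Mir96, and for Mir182 a strand that runs almost to the end of the annotated hairpin:
Mir183: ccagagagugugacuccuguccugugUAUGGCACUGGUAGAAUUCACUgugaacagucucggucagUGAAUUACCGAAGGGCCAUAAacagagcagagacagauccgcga
Mir96: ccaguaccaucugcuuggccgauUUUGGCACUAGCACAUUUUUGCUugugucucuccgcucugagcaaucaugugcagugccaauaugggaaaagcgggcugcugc
Mir182: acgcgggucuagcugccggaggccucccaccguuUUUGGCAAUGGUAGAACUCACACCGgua

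Library totals lay between 3836349 and 5415763 counts, and levels are CPM, counts scaled to a common total of miRNA counts, after scaling by the trimmed mean of M-values (TMM). In these libraries 3 counts, taken as the floor, equalled 0.588 to 0.764 CPM. All 4 members passed the filter on low counts, which kept 628 of the 685 miRNA names. Levels are shares of a library, so fewer cells that make the cluster and less of it per cell cannot be told apart. The library of shPum2 replicate 2 stood apart from the other libraries of its number for this cluster. The group comparisons, the test between replicate numbers and the correlations are therefore given with and without it. Correlations after the means of group and number were subtracted are given only with it. Within groups, Dixon's ratio set the gap to the extreme library against the range of the group's libraries. It exceeded the critical value of 0.829 in 0 of 21 checks of levels and ratios. By this measure shPum2 replicate 2 was not an outlier within its group.

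The cluster was a minor part of the neuronal miRNA pool. The 4 strands together took between 0.0274% and 0.121% of the miRNA counts of a library. Over the 12 libraries rno-miR-183-5p averaged 257 ± 121 CPM (SD, n = 12), rank 148 of the 628 miRNAs tested, and rno-miR-182 averaged 246 ± 104 CPM, rank 150. Next came rno-miR-96-5p at 84.0 ± 31.4 CPM, rank 240. The passenger strand rno-miR-183-3p was near the bottom at 2.82 ± 1.12 CPM, rank 578, with 3 to 21 counts per library. The first pair, miR-183-5p and miR-182, differed by less than the spread between libraries, and the miR-96-5p level was below both in each of the 12 libraries. Levels of different strands also depend on how well each sequence is captured in library preparation, which was not measured here.

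The level of the cluster varied with the replicate number more than with the shRNA. In shNTC, miR-183-5p stood at 248, 225, 127 and 294 CPM in replicates 1 to 4. In shStau2 it stood at 221, 224, 140 and 316 CPM, and in shPum2 at 237, 562, 125 and 366 CPM. In each group replicate 3 was the lowest library, and replicate 4 was the highest in shNTC and shStau2. In shPum2 the highest was replicate 2, at 2.51 times the mean of the other 2 libraries of that number.

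The strand miR-182, from the far end of the locus, was also lowest in replicate 3 of every group and highest in the same library of each group. It stood at 255, 201, 115 and 290 CPM in shNTC, at 255, 185, 136 and 332 CPM in shStau2, and at 259, 475, 122 and 326 CPM in shPum2. The 3 libraries of replicate 1 all lay between 254.6 and 259.1 CPM, although they carried different shRNAs. In replicate 2, shPum2 was at 2.47 times the mean of shNTC and shStau2.

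For miR-96-5p, the strand known from inherited deafness, the values were 77.6, 70.5, 45.7 and 113 CPM in shNTC. They were 77.6, 62.2, 49.2 and 105 CPM in shStau2 and 86.2, 144, 53.2 and 125 CPM in shPum2. Again replicate 3 was lowest in every group. Here shPum2 held the highest library within each of the 4 numbers, by 1.11 to 1.14 times the mean of the other 2 in numbers 1, 3 and 4 and by 2.17 times in number 2.

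The passenger strand miR-183-3p was measured on few counts, 19, 14, 6 and 10 in shNTC, 12, 13, 11 and 15 in shStau2, and 11, 16, 3 and 21 in shPum2. Its levels lay between 0.623 and 4.54 CPM, and the lowest library in each group was again replicate 3.  In shPum2 replicate 2, where the other 3 strands were more than 2.1 times higher than in the other libraries of their number, it was at 1.31 times.

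**Figure D1:**
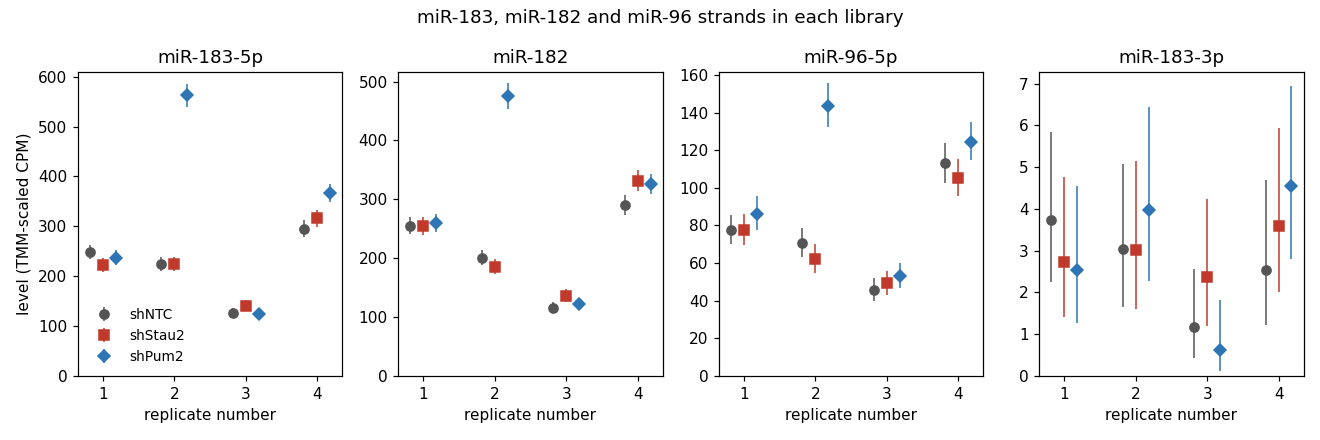
Level of each strand in TMM-scaled CPM (vertical axis, from 0) by replicate number (horizontal axis), with shNTC as grey circles, shStau2 as red squares and shPum2 as blue diamonds; bars are exact Poisson 95% intervals, which cover counting error only. For miR-183-5p, miR-182 and miR-96-5p the 3 groups lie close together within numbers 1, 3 and 4, while miR-183-3p spreads from 0.623 to 2.37 CPM within number 3; number 3 is low in each panel, and shPum2 replicate 2 stands above the other libraries of its number for miR-183-5p, miR-182 and miR-96-5p.

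The difference between replicate numbers was tested in a fit with group and replicate number. In edgeR's quasi-likelihood F test over the 4 numbers, 3 of the 4 members passed at an adjusted p of 0.05 (Benjamini-Hochberg over 628 miRNAs), while 26.1% of all miRNAs tested did. The values were F = 15.2 for miR-96-5p (adjusted p = 0.00154), F = 8.94 for miR-183-5p (adjusted p = 0.0226) and F = 8.57 for miR-182 (adjusted p = 0.025). The passenger strand miR-183-3p had F = 4.14 and did not pass (adjusted p = 0.0707). Mean levels were 325 CPM in number 4 and 130 CPM in number 3 for miR-183-5p, 316 and 124.5 for miR-182, 114 and 49.3 for miR-96-5p, and 3.56 and 1.39 for miR-183-3p. The fitted log2 differences of number 4 against number 3 were 1.30 (SE 0.28), 1.34 (SE 0.28), 1.21 (SE 0.18) and 1.37 (SE 0.43). For miR-183-5p the highest mean was that of number 2, 337 CPM, where shPum2 replicate 2 held 562 CPM.

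Single libraries decided part of this. Without shPum2 replicate 2, F rose to 58.9 for miR-183-5p (adjusted p = 4.37e-08), 74.2 for miR-182 (adjusted p = 1.22e-08) and 55.3 for miR-96-5p (adjusted p = 6.7e-08). Without shNTC replicate 1, shNTC replicate 3, shNTC replicate 4 or shPum2 replicate 3, miR-96-5p alone still passed. The adjusted p in these 4 edgeR fits was 0.055, 0.133, 0.102 and 0.0668 for miR-183-5p and 0.0709, 0.156, 0.11 and 0.081 for miR-182. Without shStau2 replicate 3, miR-183-3p passed as well (adjusted p = 0.0296). In the 12 fits that each left out 1 library, 132 to 195 of all miRNAs passed.

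Other measures moved with the replicate number too. The libraries of number 3 held 5126441 to 5415763 counts and those of the other numbers 3836349 to 5048790. The summed level of the 19 names of the neuron list (miR-124, miR-128, miR-9a and others) was 373500 to 388500 CPM in number 3 and 324900 to 347700 CPM in number 4, and its 12 libraries ranged from 321600 to 373500 CPM in shNTC, 335300 to 382100 in shStau2 and 324900 to 388500 in shPum2. None of the 19 names was at 0 in any library. The part of depth and of the neuron share in the cluster's levels was not tested.

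The spread of the cluster was large for this dataset. The standard deviation of log2 CPM over the 12 libraries was 0.64 for miR-183-5p, 0.63 for miR-182, 0.54 for miR-96-5p and 0.63 for miR-183-3p, against a median of 0.25 over all miRNAs tested. Between 94.0% and 97.1% of the miRNAs tested had a smaller one. Of the sum of squares of log2 CPM, replicate number took 72.1% for miR-183-5p, 72.6% for miR-182, 71.2% for miR-96-5p and 66.2% for miR-183-3p, while the shRNA group took 8.52%, 7.43%, 14.0% and 2.62%. For the median miRNA the shares were 44.3% for replicate number and 16.5% for the group.

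The strands rose and fell together across libraries. Over the 12 libraries, log2 CPM of miR-183-5p and miR-182 had Pearson r = 0.97 and Spearman rho = 0.96 (permutation p = 1e-05 and 2e-05, the first the smallest that 100000 resamples can give; adjusted p = 3e-05 and 6e-05 over the 6 pairs of members). For miR-96-5p and miR-182 r was 0.97 and rho 0.97 (permutation p = 1e-05 for each, adjusted p = 3e-05 and 6e-05), and for miR-183-5p and miR-96-5p r was 0.96 and rho 0.94 (permutation p = 2e-05 and 4e-05, adjusted p = 4e-05 and 8e-05). The pairs with the passenger strand, which had 3 to 21 counts per library, were looser. The part of counting error in this was not tested. Here miR-183-3p gave r = 0.81 and rho = 0.85 with miR-183-5p (permutation p = 0.00087 and 0.00097, adjusted p = 0.001 and 0.0015), r = 0.80 and rho = 0.76 with miR-182 (permutation p = 0.00071 and 0.0061, adjusted p = 0.001 and 0.0073), and r = 0.70 and rho = 0.73 with miR-96-5p (permutation p = 0.0064 and 0.009, adjusted p = 0.0064 and 0.009).

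The relations were computed again without the extreme libraries. Without the 2 libraries farthest from the median of the first strand, r was 0.96 for miR-183-5p with miR-182, 0.94 for miR-96-5p with miR-182, 0.96 for miR-183-5p with miR-96-5p, and 0.61 to 0.83 for the pairs with miR-183-3p. Without shPum2 replicate 2 alone, r was 0.95 to 0.97 among the 3 abundant strands and 0.68 to 0.85 for the pairs with miR-183-3p. Each replicate number holds 3 libraries, too few for a value within it, so the means of group and number were subtracted instead. That left r = 0.97 for miR-183-5p with miR-182, 0.98 for miR-96-5p with miR-182, 0.95 for miR-183-5p with miR-96-5p, and 0.42 to 0.61 for the pairs with miR-183-3p. These last values include shPum2 replicate 2, which stood far from the other libraries of its number. They were not computed without it, so how far they rest on that library is not known. Libraries that share a number also share much of their other miRNA levels, so the 12 points are not independent and these p-values are too small.

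The proportions among the 3 abundant strands moved less than their levels. The SD of the log2 ratio over the 12 libraries was 0.15 for miR-182 to miR-183-5p and 0.20 for miR-96-5p to miR-183-5p, against 0.54 to 0.64 for the levels, and 0.46 for miR-183-5p to miR-183-3p. The last of these ratios rests on few counts of the passenger strand, and the part of counting error in its spread was not tested. The ratio of miR-182 to miR-183-5p lay between 0.825 and 1.15 in the 12 libraries, with a median of 0.976, although the level of miR-183-5p ranged from 125 to 562 CPM. In replicate 1 miR-182 was the more abundant of the pair in all 3 groups, at ratios of 1.03, 1.15 and 1.09 in shNTC, shStau2 and shPum2, and in replicate 2 the less abundant in all 3, at 0.893, 0.825 and 0.845. The ratio of miR-96-5p to miR-183-5p lay between 0.256 and 0.427, lowest in shPum2 replicate 2 and highest in shPum2 replicate 3.

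On the Mir183 hairpin, the 5′ strand made up nearly all counts. Pooled over the libraries, 13595 counts fell on miR-183-5p and 151 on miR-183-3p, so the passenger strand held 1.10% (95% Clopper-Pearson interval 0.931 to 1.29%). The ratio of miR-183-5p to miR-183-3p was 64.5, 71.6, 99.5 and 110 in shNTC, 78.1, 71.6, 56.5 and 85.0 in shStau2, and 89.3, 138, 172 and 78.8 in shPum2. The shStau2 libraries lay lowest but overlapped with both other groups, and the highest ratio, in shPum2 replicate 3, rests on 3 counts of the passenger strand.

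**Figure D2:**
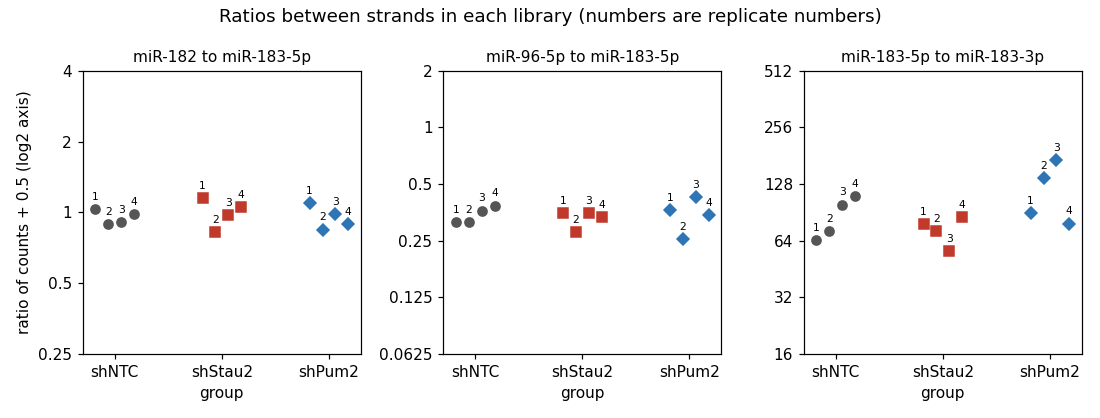
Ratio of counts plus 0.5 between strands in each library (vertical axes, log2 scale) by group (horizontal axes), with the replicate number beside each point. The ratio of miR-182 to miR-183-5p stays between 0.825 and 1.15 and that of miR-96-5p to miR-183-5p between 0.256 and 0.427, while the ratio of miR-183-5p to its passenger strand spreads from 56.5 to 172.

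No ratio passed between groups in a two-sided exact permutation test, in which 4 against 4 libraries allow a smallest p of 0.0286. After adjustment over 9 tests a single ratio at that p could not pass, so the test cannot decide whether any single ratio differed. The strand ratio of miR-183 differed most, with mean log2 values of 6.17 ± 0.25 in shStau2 and 6.83 ± 0.53 in shPum2 (difference -0.66, SD, n = 4, exact permutation p = 0.0571, adjusted p = 0.514 over 9 tests). Without shPum2 replicate 2 this difference was -0.56 (exact permutation, adjusted p = 0.514). The other 8 tests had an adjusted p of 0.986 to 1.0. Thus miR-182 against miR-183-5p differed by 0.06 between shStau2 and shNTC and by -0.0090 between shPum2 and shNTC on the log2 scale.

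The comparison of shStau2 with shNTC asks what the loss of Staufen2 does to the cluster. Mean levels were 225 ± 71.9 CPM in shStau2 and 223 ± 70.6 in shNTC for miR-183-5p, 227 ± 85.1 and 215 ± 76.2 for miR-182, 73.5 ± 24.0 and 76.7 ± 27.8 for miR-96-5p, and 2.93 ± 0.52 and 2.62 ± 1.08 for miR-183-3p (SD, n = 4). The groups overlapped for all 4 strands. None of the 4 passed in edgeR's test, where 0.318% of all miRNAs did, and the log2 fold changes were 0.01 (SE 0.43), 0.08 (SE 0.42), -0.06 (SE 0.34) and 0.15 (SE 0.44), with adjusted p of 0.986, 0.975, 0.975 and 0.952.

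The fit with the replicate number as a block narrowed this, since same-numbered libraries resembled each other. In it 6.21% of all miRNAs passed and none of the 4 strands. The log2 fold change was 0.02 for miR-183-5p (95% interval -0.52 to 0.56, edgeR adjusted p = 0.975), 0.09 for miR-182 (-0.44 to 0.62, adjusted p = 0.89), -0.04 for miR-96-5p (-0.38 to 0.29, adjusted p = 0.921) and 0.16 for miR-183-3p (-0.56 to 0.87, adjusted p = 0.853). True changes anywhere inside these intervals remain compatible with these data. Within pairs of the same number, shStau2 was the higher library in 2 of 4 pairs for miR-183-5p, miR-182 and miR-183-3p, and in 1 of 4 for miR-96-5p.

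In the comparison of shPum2 with shNTC, which asks what another active shRNA brings, the means were higher in shPum2 without passing the test. They were 323 ± 188 CPM in shPum2 for miR-183-5p, 295.5 ± 147 for miR-182, 102 ± 40.3 for miR-96-5p and 2.92 ± 1.74 for miR-183-3p (SD, n = 4), and the groups overlapped for each strand. The log2 fold changes were 0.53 (SE 0.43), 0.46 (SE 0.42), 0.41 (SE 0.34) and 0.14 (SE 0.44), each with an edgeR adjusted p of 0.982, and 0% of all miRNAs passed (9 had an unadjusted p under 0.05, and DESeq2 called 0). With the replicate block 0.159% of all miRNAs passed and none of the 4. There miR-96-5p had a log2 fold change of 0.40 (95% interval 0.07 to 0.73, unadjusted p = 0.0198, adjusted p = 0.568) and was higher in 4 of 4 pairs, as miR-182 was (0.42, adjusted p = 0.663). For miR-183-5p the value was 0.43 (adjusted p = 0.663), higher in 2 of 4 pairs.

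These values moved with single libraries of either group. Without shPum2 replicate 2, the log2 fold changes of shPum2 against shNTC were 0.15 for miR-183-5p, 0.16 for miR-182, 0.23 for miR-96-5p and -0.01 for miR-183-3p (edgeR adjusted p = 0.997, 0.995, 0.976 and 0.997). With the block and without that library they were 0.10, 0.08, 0.17 and -0.01 (adjusted p = 0.87, 0.879, 0.619 and 0.994). In the fit by group, the values for miR-183-5p, miR-182 and miR-96-5p were 0.80, 0.71 and 0.62 without shPum2 replicate 3, and 0.33, 0.25 and 0.23 without shNTC replicate 3. Without shNTC replicate 4 miR-96-5p was at 0.65. With the block, leaving out shNTC replicate 2 gave 0.27 for miR-183-5p.

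The same library entered shStau2 against shPum2, which uses the control with an active shRNA and shares its samples with the other comparisons. The log2 fold changes were -0.52 (SE 0.43) for miR-183-5p, -0.38 (SE 0.42) for miR-182, -0.47 (SE 0.34) for miR-96-5p and 0.02 (SE 0.44) for miR-183-3p, with edgeR adjusted p of 0.676, 0.814, 0.668 and 0.989. None of the 4 passed, against 0.478% of all miRNAs, and none passed with the replicate block, against 3.98%. With the block miR-96-5p had a value of -0.45 (95% interval -0.78 to -0.12, unadjusted p = 0.012, adjusted p = 0.128) and was lower in shStau2 in 4 of 4 pairs. Without shPum2 replicate 2 the values with the block were -0.09 for miR-183-5p, -0.01 for miR-182, -0.22 for miR-96-5p and 0.16 for miR-183-3p (adjusted p = 0.643, 0.969, 0.136 and 0.864). Without shStau2 replicate 2 the values with the block were -0.22 for miR-183-5p, -0.10 for miR-182 and -0.29 for miR-96-5p. In the fit by group they were -0.79, -0.64 and -0.69 without shPum2 replicate 3, miR-182 was at -0.63 without shStau2 replicate 4 and at -0.20 without shStau2 replicate 3, and without shPum2 replicate 2 they were -0.14, -0.09 and -0.29.

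**Figure D3:**
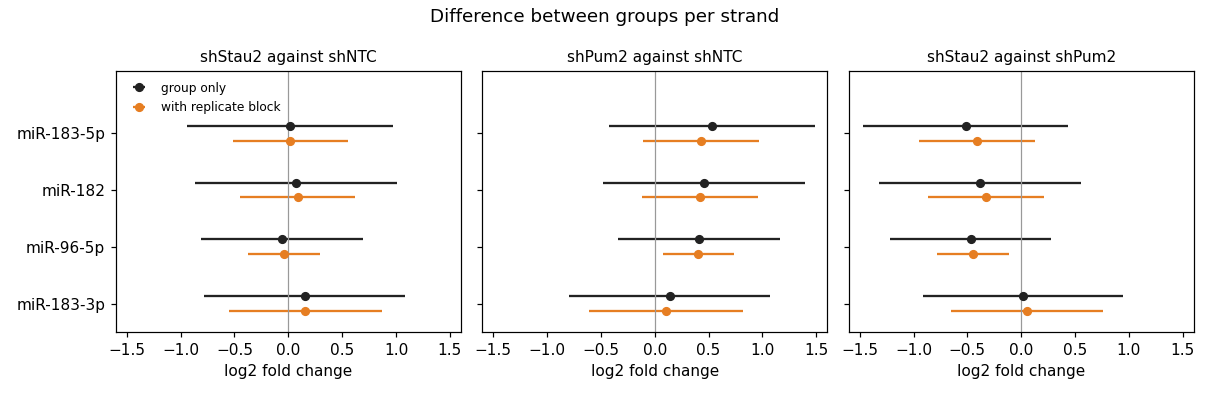
Log2 fold change (horizontal axes) of each strand in the 3 comparisons, with 95% intervals from edgeR's fit by group (black) and with the replicate number as a block (orange). The intervals include 0 except those of miR-96-5p with the block in both comparisons that hold shPum2 (0.07 to 0.73 and -0.78 to -0.12), which did not pass after adjustment.

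The library of shPum2 replicate 2 was set against the other 2 libraries of its number, with 0.5 CPM added to each level. It was picked because cluster strands were high in it, so their place among its highest names follows from that choice. No other library was set against its number in this way over all miRNAs. In shPum2 replicate 2, 6 of 628 miRNAs were at least 2 times as high and 4 at least 2 times lower. Of the 6, 3 were miR-183-5p, miR-182 (2.46 times) and miR-96-5p (2.16 times). The others, named after their values were seen, were miR-143-3p (2.71 times), miR-199a-3p (2.37 times) and miR-352 (2.54 times, on 17 counts). Both miR-143-3p and miR-199a-3p are known from smooth muscle and mesenchymal cells. For miR-143-3p the shPum2 library of replicate 2 held 294 CPM, against 112 CPM for shNTC and 104 for shStau2, and for miR-199a-3p it held 268 CPM against 107.5 and 118.

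The list of vessel or mesenchyme markers, to which both belong, was summed in every library. Its 11 names held 679 to 1019 CPM in shNTC, 588.5 to 852 in shStau2 and 654 to 1127 in shPum2, and 1127 CPM was the value of shPum2 replicate 2, against 824 and 756 in the other libraries of that number. In that library 5 of the 11 names were above both others of its number, and 8 of 11 had a higher mean in number 4 than in number 3. The shares of all miRNAs that did so were not counted, so both counts are descriptions only. The endothelial miR-126a-3p was not among the 5, at 367 CPM against 413.5 in shNTC and 363 in shStau2, and 3 passenger strands of the list were at 0 in at least 1 library. Without miR-143-3p and miR-199a-3p, which had drawn attention to the list, the other 9 names summed to 565 CPM in that library, between the 604 CPM of shNTC and the 534 of shStau2, so the list's high value there rests on those 2 names. Over the 12 libraries the summed list and the standardised cluster level had r = 0.65, given as a description. The same value was -0.74 for the neuron list, 0.34 for the sensory list, -0.26 for the choroid or ciliated list and -0.34 for the epithelial list. The part of such cells in the cluster's level was not tested.

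**Figure D4:**
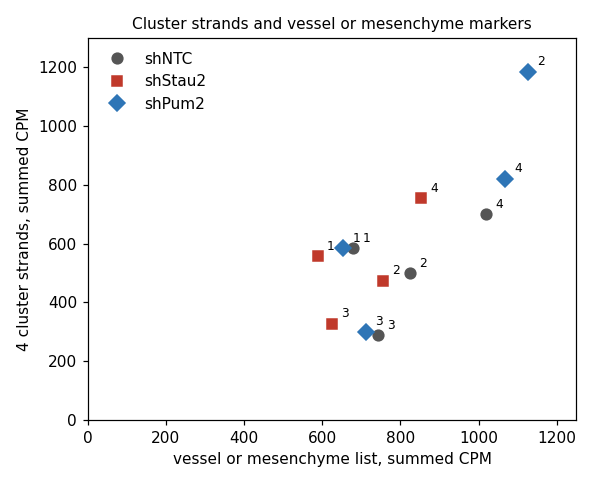
Summed level of the 4 cluster strands (vertical axis, CPM) against the summed level of the 11 vessel or mesenchyme names (horizontal axis, CPM), with 1 point per library, coloured by group and marked with its replicate number. The library of shPum2 replicate 2 is highest on both axes, at 1185 and 1127 CPM, while libraries of number 3 are low on the vertical axis, at 289 to 328 CPM.

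Of the 445 other miRNAs with a mean of at least 10 CPM, the name whose pattern over the 12 libraries was most like the cluster's was miR-3553, with r = 0.87 to the mean standardised log2 CPM of the 4 strands (median over the 445 names -0.02, lowest -0.84). Its gene is annotated inside the same locus, on the opposite strand: Mir3553 lies at chr4:59756047-59756152 on the plus strand of GRCr8 and shares 106 bases with the Mir183 hairpin. The mature miR-3553 contains the exact reverse complement of all 22 bases of miR-183-5p, with 0 mismatches. It is shown in capitals in its hairpin, which reads antisense to the Mir183 hairpin above:
Mir3553: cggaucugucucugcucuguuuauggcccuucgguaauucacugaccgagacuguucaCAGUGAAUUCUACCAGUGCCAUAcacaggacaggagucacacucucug

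The level of miR-3553 was 14.4, 13.6, 10.4 and 12.5 CPM in shNTC replicates 1 to 4. It was 13.8, 18.1, 8.42 and 16.3 CPM in shStau2 and 13.4, 22.8, 7.06 and 18.8 CPM in shPum2, on 34 to 92 counts per library. It was lowest in replicate 3 of every group and highest of all in shPum2 replicate 2, as miR-183-5p was. Since miR-3553 was picked for its likeness over these libraries, this follows in part from that choice. The ratio of miR-183-5p to miR-3553 lay between 12.2 and 24.7, with a median of 17.4. The correlation was 0.89 with miR-183-5p and 0.76 with miR-96-5p, and it was 0.83 to the cluster without shPum2 replicate 2 and 0.61 after the means of group and number were subtracted, the lowest of the 5 most similar names (0.64 to 0.85 for the others, highest for miR-181b-5p). The labels do not say whether the authors' assignment used the strand of a read, and without it reads of miR-183-5p and of its antisense partner cannot be told apart.

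The next names in likeness were miR-3473 and miR-181b-5p (r = 0.83 for each), miR-375-5p and miR-541-5p (r = 0.82 for each). They too were picked by their likeness over these libraries, so shared highs and lows follow in part from that choice. Like the cluster, miR-3473 had a lower mean in number 3 than in number 4, at 24.4 and 51.1 CPM. For miR-181b-5p, a brain miRNA at 1423 CPM on average, the range was narrow, from 1241 to 1777 CPM, with the highest value in shPum2 replicate 2. The strand miR-375-5p, whose hairpin is known from endocrine cells, stood at 26.3 to 49.8 CPM and was also highest in that library. Without shPum2 replicate 2 the 5 names most like the cluster were miR-151-3p, miR-541-5p, miR-7b, miR-3473 and miR-3553, with r of 0.83 to 0.86 over 11 libraries.

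**Figure D5:**
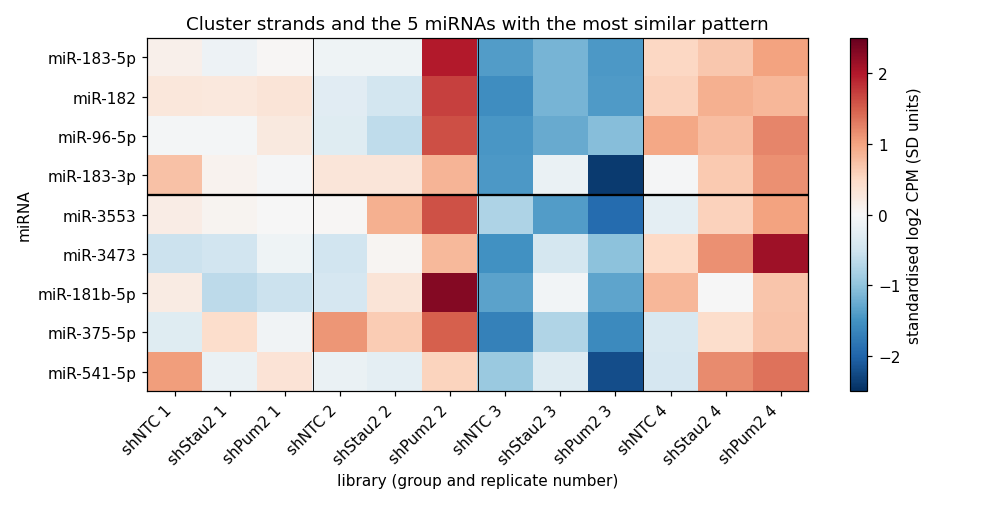
Standardised log2 CPM (colour, in SD units over the 12 libraries) of the 4 cluster strands above the line and of the 5 most similar miRNAs below it, with libraries ordered by replicate number. The libraries of number 3 are low in most rows, and shPum2 replicate 2 is above the mean in every row, by 2.29 SD for miR-181b-5p, 1.97 for miR-183-5p and 1.49 for miR-375-5p. The rows below the line were picked by their likeness over these libraries, so the shared pattern follows in part from that choice.

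Other miRNAs of sense organs and neuroendocrine cells were taken as a list of 18 names, all tested: strands of miR-7a and miR-7b, miR-184, miR-204, miR-211, miR-375 and the miR-200 family with miR-141. In edgeR's test by group 0 of the 18 passed in any of the 3 comparisons. With the replicate block 1 of 18 (5.56%, beside 6.21% of all miRNAs tested) rose in shStau2 against shNTC, miR-204-3p, a passenger strand of the retinal pigment epithelium and choroid plexus miRNA (10.0 ± 4.17 CPM in shStau2 against 5.87 ± 1.34 CPM in shNTC, SD, n = 4; edgeR log2 fold change 0.75, adjusted p = 0.0255). In shStau2 against shPum2 with the block 1 of 18 rose, beside 3.98% of all miRNAs tested called in either direction, miR-7a-5p, a neuroendocrine miRNA and the most abundant of the list (14180 ± 1754 CPM in shStau2 against 11980 ± 923 CPM in shPum2, SD, n = 4; edgeR log2 fold change 0.24, adjusted p = 0.0348). The list's median log2 fold change without the block was 0.12 in shStau2 against shNTC, -0.07 in shPum2 against shNTC and 0.20 in shStau2 against shPum2, beside 0.0033, 0.0021 and 0.0053 over all miRNAs tested.

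Between replicate numbers 7 of the 18 passed, against 26.1% of all miRNAs tested. Of the 7, 5 had a higher mean in number 4 than in number 3. The share of all miRNAs that did so was not counted, so this is a description only. Names of the list that did not pass went either way, with miR-7a-1-3p at 114 CPM in number 4 and 142 in number 3, and miR-141-3p at 3.52 and 2.68. The 5 are given with their means in numbers 4 and 3. These were miR-7a-5p (14790 and 12050 CPM), miR-7b (1288 and 973), miR-375-5p (39.0 and 28.3), miR-211-3p (21.9 and 17.5) and miR-204-3p (7.58 and 5.87). The other 2 had the lower mean in number 4, miR-204-5p with 1300 and 1393 CPM and miR-375-3p with 14.4 and 22.0 CPM. The summed list lay between 15760 and 18900 CPM in number 4 and between 13990 and 15940 CPM in number 3. Most of the sum was miR-7a-5p, at 12970 CPM on average, so the sum describes mainly that strand. In shPum2 replicate 2 the sum was at 14200 CPM, below the 15390 and 16150 CPM of the other libraries of that number. There miR-7a-5p was at its lowest, 10870 CPM. In that library miR-7b was also below its mean (1079 against 1154 CPM), while miR-204-5p was above its own (1893 against 1540 CPM). Most of the 10 names of the epithelial list belong to the miR-200 family, which shares the olfactory and taste epithelia with the cluster. The list summed to 85.0 to 118 CPM, with 92.9 CPM in shPum2 replicate 2 and 118 and 98.3 CPM in the others of its number. Its strands of the miR-200 family and miR-141 averaged only 2.31 to 4.61 CPM each. Most of the sum thus came from miR-203a and miR-205, and it says little about the miR-200 family. The choroid or ciliated list of 12 names was at 3590 CPM in that library, against 4005 and 4459 CPM, and was lower in number 4 (2030 to 2239 CPM) than in number 3 (2772 to 3370 CPM). The sum of the cluster's strands ran the other way, with 700 to 821 CPM in number 4 and 289 to 328 CPM in number 3. The lists overlap: miR-204 and miR-211 stand in both the sensory and the choroid lists, the miR-200 family and miR-141 in both the sensory and the epithelial lists, and miR-143 and miR-145 in both the vessel and the astrocyte lists.

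The remaining lists were taken as markers of glia and blood cells, although miR-143 and miR-145 of the astrocyte list stand in the vessel list as well. The astrocyte list of 10 names (miR-21, miR-23a, miR-27a, miR-143 and miR-145) summed to 4741 to 7616 CPM in shNTC, 2819 to 4093 in shStau2 and 3397 to 5476 in shPum2. Each shStau2 library lay below each shNTC library, and the share of all miRNAs separated in this way was not counted. In shStau2 against shNTC, 0 of the list's 9 tested names passed in edgeR's test by group, beside 0.318% of all miRNAs. With the replicate block 5 passed as lower and 1 as higher, beside 6.21% of all miRNAs in either direction. The list's summed level was not high in shPum2 replicate 2, at 4307 CPM against 7616 and 3904. The oligodendrocyte list of 5 names ranged from 236 to 422 CPM and the blood or microglia list of 7 names from 97.4 to 197 CPM, the latter highest in shPum2 replicate 2. Their r with the cluster level were -0.14, -0.54 and 0.03 over the 12 libraries, as descriptions, and their part in the cluster's level was not tested.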

How the data were processed

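Small RNA was measured in 12 libraries, 4 in each of 3 groups. Per the labels' protocols, total RNA was isolated as a batch, had an RNA integrity number of 9.5, and was prepared with a small RNA kit whose adapters carry unique molecular identifiers. The deposited values are raw counts per small RNA name, 685 miRNA names and 120 names of Piwi-interacting RNAs. Per the submitters' processing notes, reads were placed on Rnor 6.0. The aligner, the counter and whether molecules or reads were counted are not stated in the labels, so intervals cover counting error only.

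The tests used R 4.3.3 with edgeR 4.0.16 on these counts (TMM scaling, filterByExpr by group, robust quasi-likelihood fit of all 12 libraries), two-sided, with Benjamini-Hochberg adjustment over 628 miRNAs and a threshold of 0.05. The code was tested on simulated data. Ratios of counts plus 0.5 and correlations of log2 CPM (prior count 2) were tested by permutation with numpy 2.4.6; binomial intervals came from scipy 1.17.1. DESeq2 1.42.0 and other scalings, filters and left-out libraries were run as alternatives. The members, lists and tests were chosen with earlier results of these data known. Besides the 4 members, the text names the 5 miRNAs most like them, names that share seed bases, and list members that are abundant or passed the test.

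The labels do not say whether a replicate number marks one neuron preparation. As a check of the pairing, deviations from the group means correlated at 0.36 to 0.57 for the 12 same-numbered pairs of libraries and at -0.41 to 0.14 for the 36 others, so the fit with a replicate block is printed beside the fit by group. Where nothing says that libraries came from separate animals, p-values measure the spread between these libraries. Sequences are from RefSeq (GRCr8). The piRNA names were not used here.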

Additional observations from a re-analysis of the deposited data

How the results depend on the processing

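In every alternative run, 0 of the 4 members passed in any comparison between groups and 0 of 9 ratios passed. For the ratios no single test could pass after adjustment over 9 tests, so their count of 0 decides nothing. For ratios the replicate block was a sign-flip test, in which 4 pairs cannot reach the threshold; the strand ratio of miR-183 in shStau2 against shPum2 then had a difference of -0.66 (exact sign-flip adjusted p = 0.75). All 6 correlations between members passed under every alternative run. With the replicate block the count over all miRNAs was 39 in shStau2 against shNTC, 1 in shPum2 against shNTC and 25 in shStau2 against shPum2, instead of 2, 0 and 3, and it changed no call of a member. DESeq2 called 18 and 7 in the first and last of these, and upper-quartile factors and fits of 8 libraries each called 0 in the last. Leaving out 1 library gave 1 to 3 calls in shStau2 against shNTC (1 without shStau2 replicate 3) and 0 to 4 in shStau2 against shPum2. It gave 1 to 4 members that differ between replicate numbers, beside 132 to 195 of all miRNAs. The cause of these shifts was not tested.

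Small fold changes of members turned sign, none of them past the threshold. With library totals only, miR-183-5p was at -0.05267 in shStau2 against shNTC and miR-183-3p at -0.05158 in shStau2 against shPum2, and with 8 libraries the latter was at -0.006093. Leaving out 1 library moved shStau2 against shNTC over -0.1695 to 0.2561 for miR-182, -0.1968 to 0.187 for miR-183-5p, -0.2851 to 0.1824 for miR-96-5p and -0.1068 to 0.3923 for miR-183-3p. It moved miR-183-3p over -0.1831 to 0.4884 in shPum2 against shNTC and -0.3373 to 0.3331 in shStau2 against shPum2. The log2 ratio of miR-182 to miR-183-5p moved over -0.01459 to 0.1448, -0.07749 to 0.04608 and -0.005631 to 0.1538 in shStau2 against shNTC, shPum2 against shNTC and shStau2 against shPum2, and that of miR-96-5p to miR-183-5p over -0.1074 to 0.01237, -0.1129 to 0.1339 and -0.1997 to 0.04714.

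Fits that left out a library and kept the replicate block were chosen after seeing the data. In shStau2 against shNTC they turned miR-182 to -0.02748 without shNTC replicate 2 and -0.01594 without shStau2 replicate 3. They turned miR-183-5p to -0.1287, -0.09667 and -0.03337 without shNTC replicate 2, shStau2 replicate 3 and shStau2 replicate 4, miR-96-5p to 0.09965 and 0.01557 without shStau2 replicate 2 and shNTC replicate 4, and miR-183-3p to -0.08957 and -0.03649 without shStau2 replicate 3 and shNTC replicate 4. In shPum2 against shNTC miR-183-3p was at -0.01402, -0.0949 and -0.1443 without shPum2 replicate 2, shNTC replicate 4 and shPum2 replicate 4. In shStau2 against shPum2 it was at -0.09517, -0.1964 and -0.1502 without shPum2 replicate 1, shStau2 replicate 3 and shPum2 replicate 3. Values of miR-183-3p rest on 3 to 21 counts per library.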
